A study of Saccharomyces cerevisiae x Saccharomyces paradoxus and Saccharomyces cerevisiae and Saccharomyces paradoxus with 40 samples.

Results

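The small subunit of the cytoplasmic ribosome of budding yeast is built from ribosomal RNA and a set of RPS proteins. Most of these proteins are encoded by a pair of similar paralogues left by an ancient genome duplication. The genes described here are the RPS genes whose systematic names end in W, which 30 names list. Of these, 29 are among the 3217 genes of the deposited tables. Among the 3217 genes, 3058 have a systematic W name and 4 a C name. Shares of gene counts and of genes tested below refer to this set. RPS18A, the listed gene outside the tables, was not analysed here. Of the 29 genes, 6 are single-copy (among them RPS2 or YGL123W, RPS3 or YNL178W, RPS13 or YDR064W, RPS20 or YHL015W, and RPS31 or YLR167W), 10 form 5 complete paralogue pairs (among them RPS0A and RPS0B, YGR214W and YLR048W; RPS9A and RPS9B, YPL081W and YBR189W; RPS10A and RPS10B, YOR293W and YMR230W; RPS23A and RPS23B, YGR118W and YPR132W) and 13 have a paralogue that is not in the list. The naming rule uses no measured value.

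Ribosomal protein genes are transcribed together, at a rate that follows nutrients. Rap1 binds their promoters, Fhl1 with its coactivator Ifh1 and the activator Sfp1 act with it, and the TORC1 and protein kinase A pathways control these factors. In starved diploid yeast that enters meiosis, transcription of these genes is known to be turned down. The small subunit binds messenger RNA, decodes it, and is made in the nucleolus and finished in the cytoplasm with the help of assembly factors.

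Poly-A RNA was sequenced from cultures of 3 genotypes at 4 stages of sporulation, in 40 libraries. The genotypes are the hybrid of Saccharomyces cerevisiae and Saccharomyces paradoxus (4 libraries at each stage), the parent S. paradoxus (3 at each stage) and the parent S. cerevisiae (3 at each stage). The stages are T0, the moment of entry into sporulation medium and the control, M1, the start of meiosis I, M1M2, the overlap of meiosis I and meiosis II, and M2, the end of meiosis II. Every culture was grown in YPD, a rich glucose medium, and then moved to potassium acetate medium, T0 included. The labels give no strain name. The series design says that the hybrids come from both directions of the cross but not which library comes from which, so direction was not compared. A culture is bulk material, so fewer expressing cells and less RNA per cell cannot be told apart. The series describes its libraries as biological replicates.

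Library depth limited many of the values. The median library held 1348916 gene counts, the deepest 7732384 and the shallowest, replicate 2 of S. cerevisiae at M1M2, 23453. Also shallow were replicate 3 of the hybrid at M2 (117049), replicate 2 of S. cerevisiae at M1 (159496) and replicate 2 of S. paradoxus at M2 (300704), which makes the 4 shallowest. In hybrid M2 replicate 3 the 29 genes held 86 counts in all and 15 of them were at 0. As a check of the stage labels, IME2, a kinase of meiotic entry, passed as higher than T0 at every later stage in each genotype. NDT80, the activator of middle meiosis genes, did so at M1M2 and M2 in each genotype. The S. cerevisiae calls of NDT80 at M1M2 and IME2 at M1 include shallow replicate 2, given second below. NDT80 stood there at 89.7, 2330 and 270 CPM (counts scaled to a common total). Its M1M2 range was 3800 to 5730 CPM in the hybrid and 1200 to 3810 CPM in S. paradoxus. IME2 stood at 140, 1890 and 352 CPM in S. cerevisiae at M1. Its M1 range was 935 to 2310 CPM in the hybrid and 1050 to 6240 CPM in S. paradoxus. How well stages match between genotypes was not tested. The hybrid value of every feature equals the sum of its 2 alleles, and how reads that fit both species alike were counted is not given in the sources used here.

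Sequence of the S. cerevisiae reference (RefSeq, build R64) shows motif matches upstream of these genes and how alike the paralogues are. The stretches below are single-copy genes' upstream sequence on the coding strand, shown because each holds a match to the Rap1 motif ACCCANACA, in capitals. They lie at chrVII:277209-277258 (RPS2) and chrIV:579208-579257 (RPS13).
RPS2: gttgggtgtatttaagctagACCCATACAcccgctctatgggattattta
RPS13: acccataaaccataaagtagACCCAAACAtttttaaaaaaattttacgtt

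Within 500 bases before the start codon and on either strand, 11 of the 29 genes (37.9%) hold ACCCANACA, against 3.08% of 6000 S. cerevisiae genes. The wider form ACCCANNCA, which includes every match of the first, is in 14 of 29 (48.3%), against 5.98% of all genes. The shorter motif GACGC, found near Fhl1-bound sites, is in 14 of 29 (48.3%), against 30.4% of all genes. Among 42 large-subunit genes of the tables chosen by the same naming rule, 35.7% hold ACCCANACA. The 14 matches to ACCCANACA lie 190 to 498 bases before the start codon, with a median of 338. These are matches of letters, not measured binding, and the S. paradoxus sequence was not used here.

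The paralogue pairs differ to unlike degrees, which bears on how reads are shared between them. For the RPS0 and RPS23 pairs, the 60 bases of the longest exon that hold the most differences are shown. RPS0A and RPS0B, both shown as coding-strand exon sequence with the differing bases in capitals, differ at 18 of 60 bases in the stretch shown (chrVII:921666-921725 and chrXII:243227-243286) and at 74 of 759 coding bases as a whole.
RPS0A: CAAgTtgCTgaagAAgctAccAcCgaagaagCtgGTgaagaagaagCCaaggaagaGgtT
RPS0B: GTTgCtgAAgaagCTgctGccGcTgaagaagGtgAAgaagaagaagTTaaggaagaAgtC

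RPS23A and RPS23B, shown likewise, differ at 4 of 60 bases in their stretch (chrVII:727569-727628 and chrXVI:795606-795665) and at 15 of 438 coding bases as a whole.
RPS23A: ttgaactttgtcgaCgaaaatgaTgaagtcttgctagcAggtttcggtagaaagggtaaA
RPS23B: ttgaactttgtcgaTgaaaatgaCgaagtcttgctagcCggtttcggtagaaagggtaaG

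Coding identity within pairs runs from 84.3% for RPS27A and its paralogue to 98.2% for RPS8B and its paralogue, and is 90.3% for the RPS0 pair, 90.9% for RPS9, 93.1% for RPS10 and 96.6% for RPS23. How the authors' counting shared reads between paralogues is not stated, so the values of single paralogues are less certain than those of single-copy genes.

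The mean share of the gene counts held by the 29 genes was lower at each later stage in all 3 genotypes. In the hybrid the share was 1.64 ± 0.21% at T0, 0.252 ± 0.0372% at M1, 0.206 ± 0.0869% at M1M2 and 0.137 ± 0.0507% at M2 (mean ± SD, n = 4 each). In S. paradoxus it was 2.16 ± 0.622%, 1.14 ± 0.626%, 0.472 ± 0.125% and 0.27 ± 0.0315% at the same stages (n = 3 each). In S. cerevisiae it was 4.5 ± 0.23%, 1.46 ± 0.539%, 0.74 ± 0.427% and 0.327 ± 0.0651% (n = 3 each). Libraries of M1 and M1M2 overlapped in each genotype, and steps between later stages were not tested. The M1 and M1M2 ranges were 0.206 to 0.287% and 0.092 to 0.286% in the hybrid. They were 0.514 to 1.77% and 0.329 to 0.561% in S. paradoxus, and 0.834 to 1.8% and 0.296 to 1.15% in S. cerevisiae.

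At M1 the share was 6.49 times lower than at T0 in the hybrid, 1.89 times lower in S. paradoxus and 3.09 times lower in S. cerevisiae. By M2 the ratios were 11.9, 8.01 and 13.7 in the same order of genotypes. The 4 hybrid M1 libraries, at 0.206 to 0.287%, lay below the 3 S. paradoxus M1 libraries, at 0.514 to 1.77%, and below the 3 S. cerevisiae M1 libraries, at 0.834 to 1.8%. The hybrid already had the lowest mean share at T0, where its libraries (1.42 to 1.87%) overlapped those of S. paradoxus (1.51 to 2.74%) and not those of S. cerevisiae (4.26 to 4.72%).

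**Figure D1:**
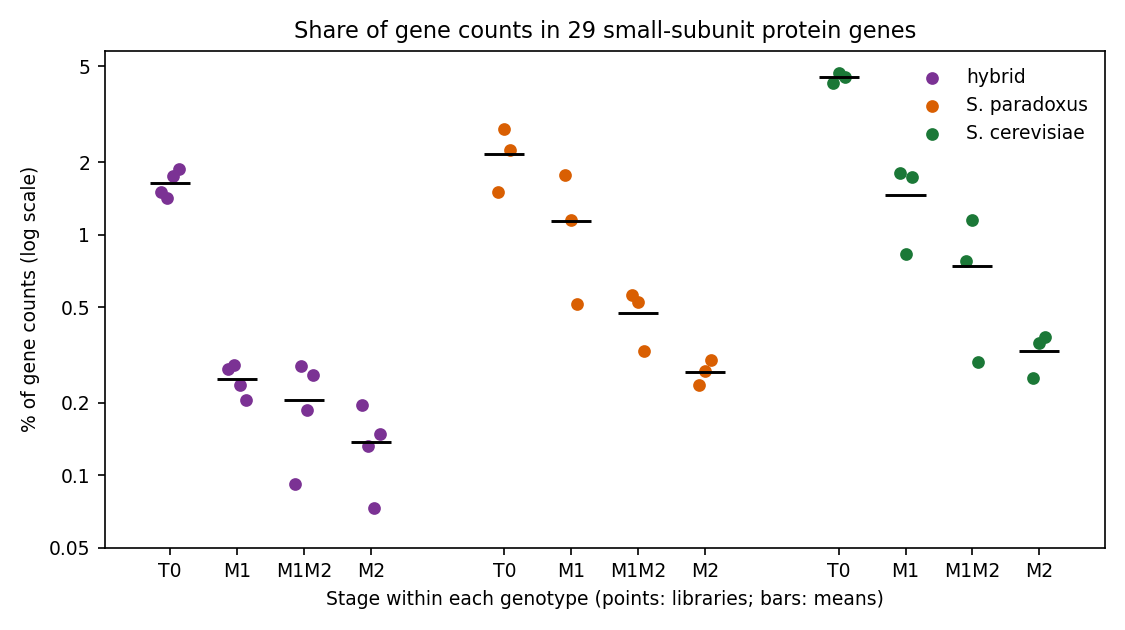
Percent of gene counts in the 29 genes (log axis) in each library, by stage within each genotype; points are libraries and bars are means. The 4 hybrid M1 libraries lie between 0.206 and 0.287%, below every M1 library of either parent.

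Gene by gene, the changes from T0 were tested with edgeR's quasi-likelihood test in 1 model of all 12 groups, with p-values adjusted over 3094 genes. A log2 change below 0 is a lower level at the later stage, an SE is the standard error of a log2 change, and a gene is said to have fallen when its adjusted p is under 0.05. The 3 changes of a genotype share its T0 libraries, so they are given side by side and not set against each other.

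In the hybrid at M1, 22 of the 29 genes fell and 0 rose, with a median log2 change of -3.11 against -0.06 over all genes tested, of which 9.41% fell and 3.07% rose. At M1M2 24 fell (median -3.34, all genes -0.04, of which 12.4% fell and 9.73% rose) and at M2 26 fell (median -3.21, all genes -0.22, of which 14.0% fell and 12% rose). All 29 log2 changes were negative at each of these stages. In 24, 25 and 27 of the 29 genes at M1, M1M2 and M2, every later library lay below every T0 library, as 14.6%, 18.6% and 16.9% of all genes did.

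In S. paradoxus at M1, 1 gene fell (median -1.33, all genes -0.10, of which 1.94% fell and 1.42% rose). At M1M2 11 fell (median -2.54, all genes -0.17, of which 5.11% fell and 4.23% rose), and at M2 20 fell (median -3.44, all genes -0.33, of which 8.24% fell and 6.88% rose). The count at M1M2 was 5 when any of the 3 S. paradoxus M1M2 libraries was left out. At M1, 25 of 29 log2 changes were negative and in 12 genes every M1 library lay below every T0 library, as in 15.7% of all genes. That gene count was 28 at M1M2 and 27 at M2, against 24.0% and 24.3% of all genes.

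In S. cerevisiae at M1, 3 genes fell (median -1.87, all genes 0.02, of which 4.78% fell and 4.07% rose), and DESeq2, used as a second tool, called 9. This count was 1 without T0 replicate 2 or M1 replicate 1, and 0 without any other of the 6 S. cerevisiae T0 and M1 libraries. At M1M2 15 fell (median -2.88, all genes 0.03, of which 5.43% fell and 6.98% rose), and at M2 24 fell (median -4.04, all genes 0.00, of which 11.6% fell and 11.2% rose). DESeq2 called 26 genes at M1M2, and the edgeR count there was 8 without replicate 1 and 4 without replicate 3. Here and below, shares of all genes called are those of the main edgeR fit. None is given for DESeq2 or for fits with libraries left out, so those counts stand without that comparison. Every M1 library lay below every T0 library in 20 genes, as in 18.5% of all genes, and this count was 26 at M1M2 and 28 at M2, against 19.7% and 24.0%.

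**Figure D2:**
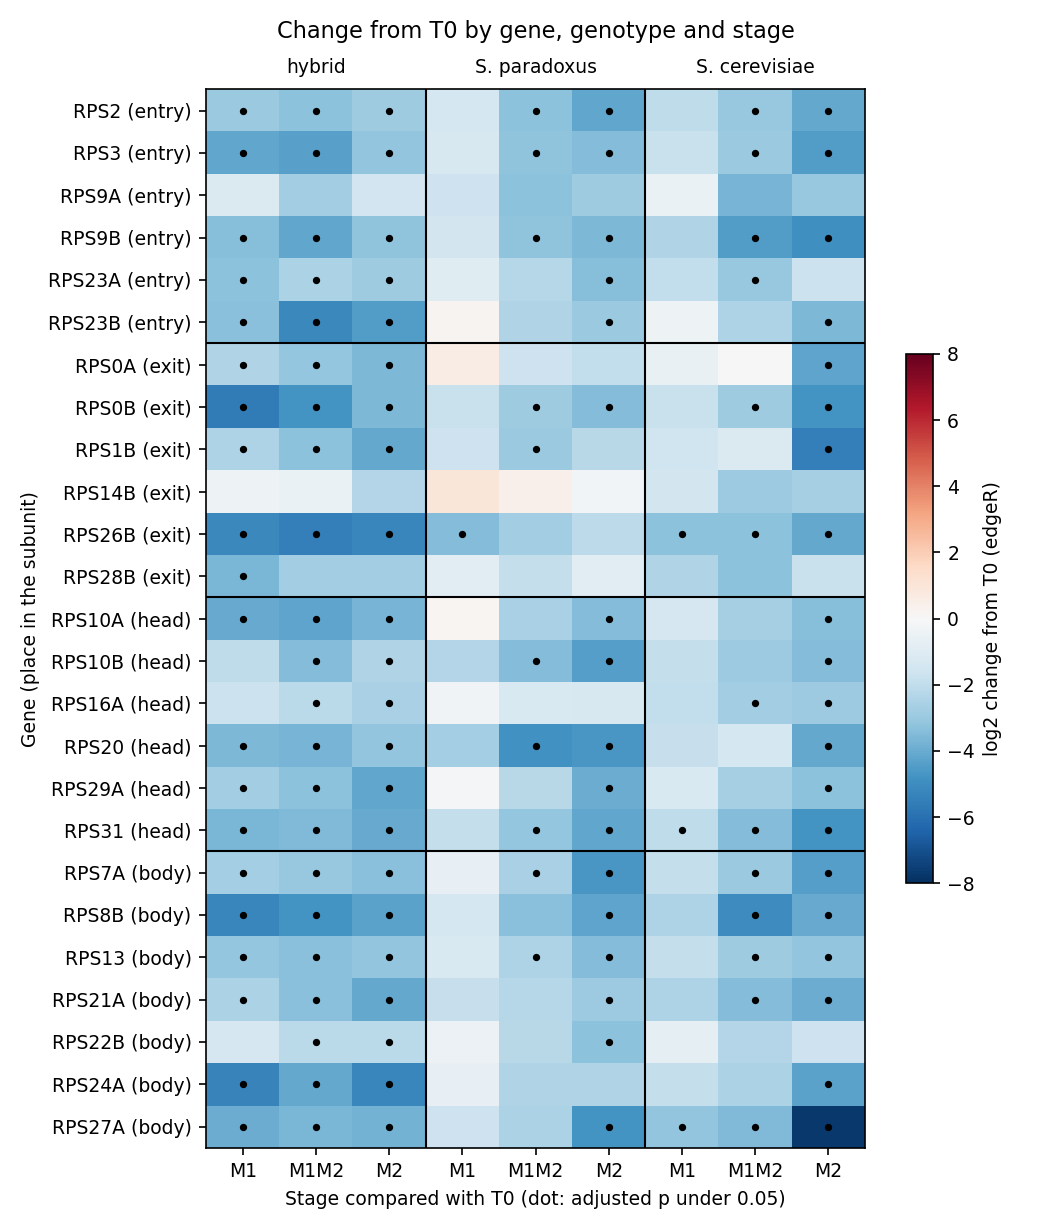
Log2 change from T0 (colour, edgeR) of 25 of the 29 genes (rows, grouped by place in the subunit) in the 9 comparisons of a later stage with T0 (columns); a dot marks an adjusted p under 0.05. At M1, 20 dots stand in the hybrid column, 1 in the S. paradoxus column and 3 in the S. cerevisiae column.

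Whether the fall at M1 was larger in the hybrid was tested directly, as the difference between 2 changes from T0. No gene passed in edgeR for the hybrid minus S. paradoxus at M1. The smallest adjusted p was 0.123, 12 genes had an unadjusted p under 0.05, and DESeq2 called 3 (RPS0B, RPS10A and RPS24A). The median of this difference was -1.91 with 26 of 29 values negative, against a median of -0.08 over all genes, of which 0.194% passed as lower and 0.194% as higher. Without the 4 shallowest libraries, none of which is among the T0 and M1 libraries of these 2 genotypes, the shared model of edgeR called 4 genes, RPS0A, RPS0B, RPS3 and RPS24A.

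For the hybrid minus S. cerevisiae at M1 no gene passed in edgeR either (smallest adjusted p 0.144, 5 genes with an unadjusted p under 0.05, all genes 0.194% lower and 0.0646% higher), and DESeq2 called RPS0B. The median difference was -1.20 with 25 of 29 negative, against -0.23 over all genes. RPS0B, a protein of the mRNA exit side, had the lowest adjusted p in both tests, with a difference of -3.82 (SE 1.12, adjusted p = 0.123) from S. paradoxus and -3.83 (SE 1.13, adjusted p = 0.144) from S. cerevisiae. For S. paradoxus minus S. cerevisiae at M1, 0 genes passed in edgeR, 0 in DESeq2 and 0 had an unadjusted p under 0.05, with a median of 0.62 against -0.07 over all genes, of which 1.55% passed as lower and 0.42% as higher.

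The same differences were tested at the later stages. For the hybrid minus S. paradoxus the median was -0.92 at M1M2 and -0.02 at M2. For the hybrid minus S. cerevisiae it was -0.18 at M1M2, which turned to 0.10 when scaling left out ribosomal protein genes, and 0.68 at M2. For S. paradoxus minus S. cerevisiae it was 0.40 and 0.68. No gene passed in edgeR in any of these 6 tests, where 2, 1, 2, 1, 2 and 3 genes had an unadjusted p under 0.05 in the order given. DESeq2 called RPS0A for the hybrid minus S. cerevisiae at M1M2 and RPS27A for the same pair at M2, and 0 in the other 4 tests. The shares of all genes called lower were 0.097%, 0.129%, 1.58%, 0.0%, 2.42% and 1.03% in the same order, and those called higher 0.129%, 0.291%, 0.259%, 0.0323%, 0.194% and 0.485%.

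**Figure D3:**
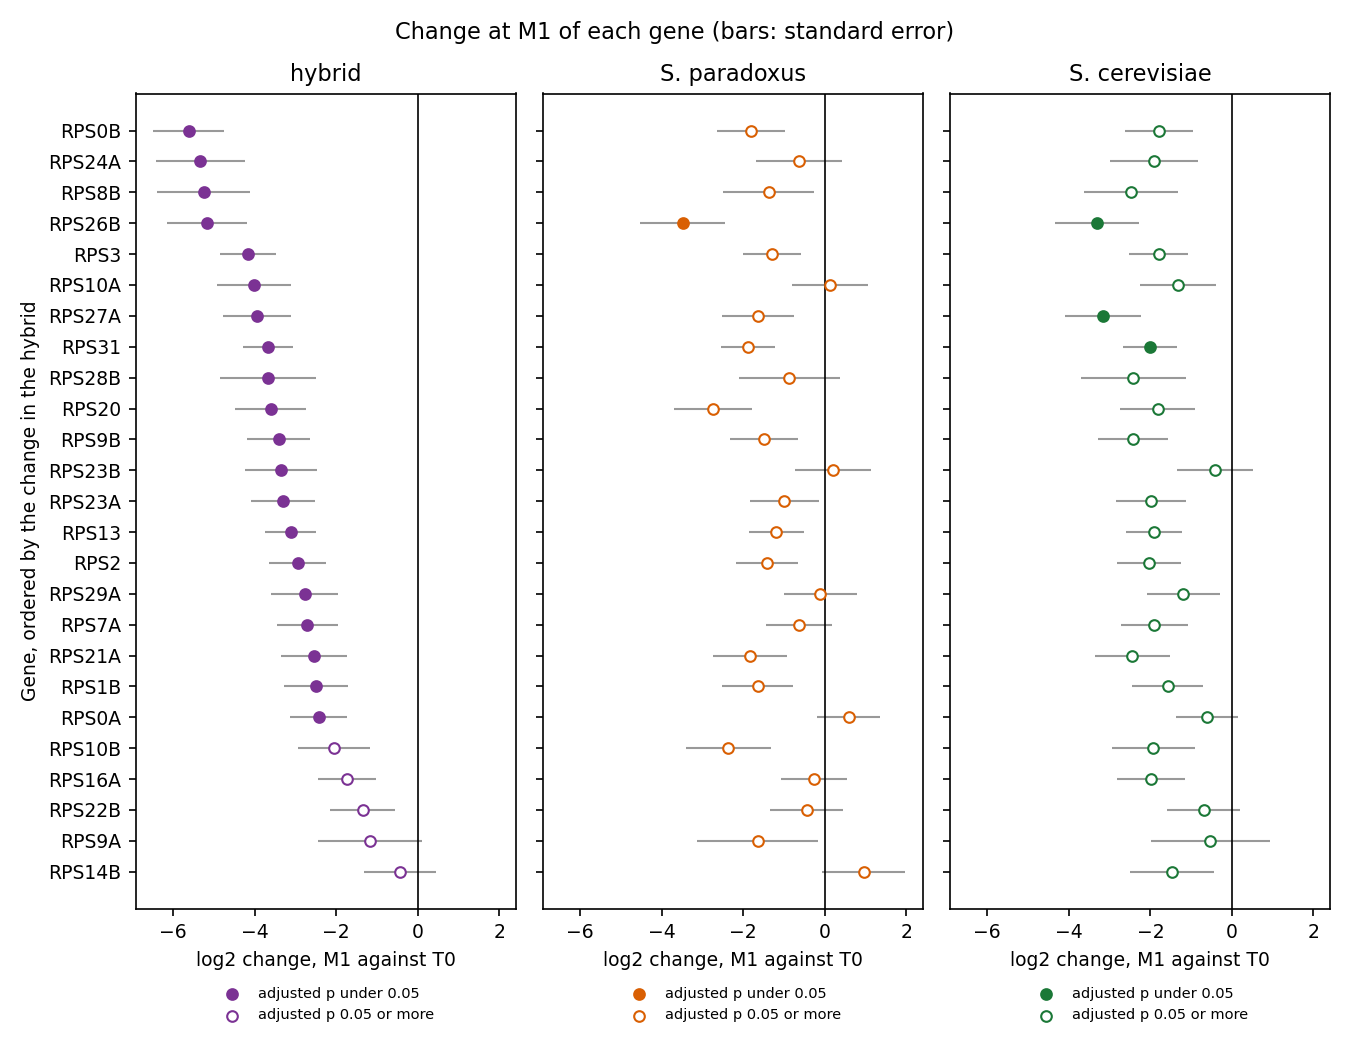
Log2 change at M1 against T0 (x axis) of 25 of the 29 genes with its standard error, in the hybrid, S. paradoxus and S. cerevisiae; filled points have an adjusted p under 0.05. The hybrid points run from -5.62 for RPS0B to -0.44 for RPS14B, those of S. paradoxus from -3.49 to 0.96 and those of S. cerevisiae from -3.31 to -0.41.

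At the mRNA entry side of the subunit sit RPS2, RPS3 and the RPS9 proteins, with the RPS23 proteins close by at the decoding centre. Levels below are CPM, gene counts scaled to a common total with TMM factors. RPS3 is a single-copy gene whose protein lines the mRNA entry tunnel. RPS3 stood at 32.0, 184, 211 and 170 CPM in the hybrid M1 libraries, against 2120, 1780, 3060 and 3850 CPM at T0. RPS3 stood at 1370, 726 and 263 CPM in the S. paradoxus M1 libraries, against 1390, 1960 and 2420 CPM at T0. RPS3 stood at 1220, 1490 and 1270 CPM in the S. cerevisiae M1 libraries, against 4520, 5090 and 4190 CPM at T0.

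M1 and T0 libraries did not overlap for RPS3 in any genotype. The log2 change of RPS3 at M1 was -4.17 in the hybrid (SE 0.69, adjusted p = 1.07e-05), -1.29 in S. paradoxus (SE 0.71, adjusted p = 0.416) and -1.80 in S. cerevisiae (SE 0.72, adjusted p = 0.107). By M2 RPS3 had fallen in all 3, with log2 changes of -3.14, -3.45 and -4.45 in that order (adjusted p 0.000202, 0.000811 and 2.71e-05).

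RPS2, also single-copy, encodes another protein of the entry side. RPS2 stood at 11, 44.8, 47.2 and 16.7 CPM in the hybrid M1 libraries, against 318, 245, 202 and 168 CPM at T0. RPS2 stood at 976, 747 and 361 CPM in the S. paradoxus M1 libraries, against 969, 2540 and 2080 CPM at T0. RPS2 stood at 1430, 336 and 848 CPM in the S. cerevisiae M1 libraries, against 3750, 3360 and 3670 CPM at T0.

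M1 and T0 libraries of RPS2 overlapped in S. paradoxus alone, where replicate 1 had 976 CPM at M1 and 969 CPM at T0. The 4 hybrid T0 libraries lay below every T0 library of either parent. The log2 change of RPS2 at M1 was -2.94 in the hybrid (SE 0.70, adjusted p = 0.00221), -1.42 in S. paradoxus (adjusted p = 0.393) and -2.03 in S. cerevisiae (adjusted p = 0.0887). At M2 the log2 changes of RPS2 were -2.82, -4.18 and -4.09 in the same order of genotypes, and each passed.

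The paralogues RPS9A and RPS9B of the entry side stand at different levels, and RPS9A is the minor copy. At T0 RPS9A took 14.6 ± 12.7% of the counts of the pair in the hybrid (SD, n = 4), 14.5 ± 2.14% in S. paradoxus and 5.61 ± 1.13% in S. cerevisiae (n = 3 each). RPS9B fell in the hybrid at M1 (log2 -3.41, adjusted p = 0.00133), at M1M2 (-4.15) and at M2 (-3.21), and RPS9A did not pass at any stage in any genotype, with log2 changes of -3.72 to -0.53 and standard errors of 1.27 to 1.74. The summed counts of the pair passed at M1 in the hybrid (-2.55, adjusted p = 0.0101) and at M1M2 and M2 in all 3 genotypes.

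RPS23A and RPS23B fell in the hybrid at all 3 stages, with log2 changes of -3.31, -2.55 and -2.83 for RPS23A and -3.35, -5.14 and -4.47 for RPS23B. RPS23B stood at 52.2, 34, 44 and 0 CPM in the hybrid M1 libraries, against 205, 144, 154 and 841 CPM at T0. The 841 CPM of replicate 4 stand well above the other T0 libraries. In S. cerevisiae RPS23A stood at 295, 161 and 760 CPM at M2, against 1360, 1470 and 1230 CPM at T0, a log2 change of -1.74 that did not pass (adjusted p = 0.137). RPS23A took 78.9 ± 8.33% of the counts of its pair in the hybrid at T0 (n = 4), against 53.8 ± 8.15% in S. paradoxus and 53.3 ± 9.42% in S. cerevisiae (n = 3 each), and these hybrid libraries (70.6 to 87.9%) lay above all T0 libraries of the parents (43.6 to 62.4%). The T0 share of RPS0A in its pair was also apart (59.0 to 91.0% in the hybrid, 39.0 to 49.6% in the parents). For the other complete pairs the T0 libraries of hybrid and parents overlapped. The part that reads fitting both species or both paralogues have in these shares was not tested.

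At the mRNA exit side and the platform sit, among others, the proteins of RPS0, RPS1, RPS14, RPS26 and RPS28. The pair RPS0A and RPS0B, whose proteins are related to the laminin receptor of animals, moved unequally. RPS0B stood at 1.83, 10.9, 5.65 and 5.56 CPM in the hybrid M1 libraries, against 483, 278, 369 and 110 CPM at T0. RPS0A stood at 103, 192, 118 and 191 CPM in the same M1 libraries, against 695, 571, 888 and 1110 CPM at T0. Both fell, RPS0B with the largest log2 change of any of the 29 genes in the hybrid at M1 (-5.62, SE 0.87, adjusted p = 3.03e-06) and RPS0A with -2.43 (SE 0.70, adjusted p = 0.0129).

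RPS0A accordingly took 96.4 ± 1.65% of the counts of the pair in the hybrid at M1, against 72.0 ± 13.6% at T0 (SD, n = 4 each), with no overlap of the libraries. In S. paradoxus the share of RPS0A was 76.7 ± 19.8% at M1, against 44.3 ± 2.62% at T0 (n = 3 each), and in S. cerevisiae it was 64.6 ± 14.9% at M1, against 43.1 ± 5.72% at T0 (n = 3 each). The S. cerevisiae M1 share of replicate 2, 48.2%, lay within the range of T0 (39.0 to 49.6%). RPS0B at M1 stood at 323, 32.5 and 223 CPM in S. paradoxus, against 371, 637 and 1020 CPM at T0, and at 427, 886 and 224 CPM in S. cerevisiae, against 2490, 1090 and 1690 CPM at T0. Neither change passed (log2 -1.80 and -1.79). The 3620 CPM of RPS0A in S. cerevisiae M1M2 replicate 2 come from the shallowest library of all, beside 278 and 338 CPM in the other M1M2 libraries.

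**Figure D4:**
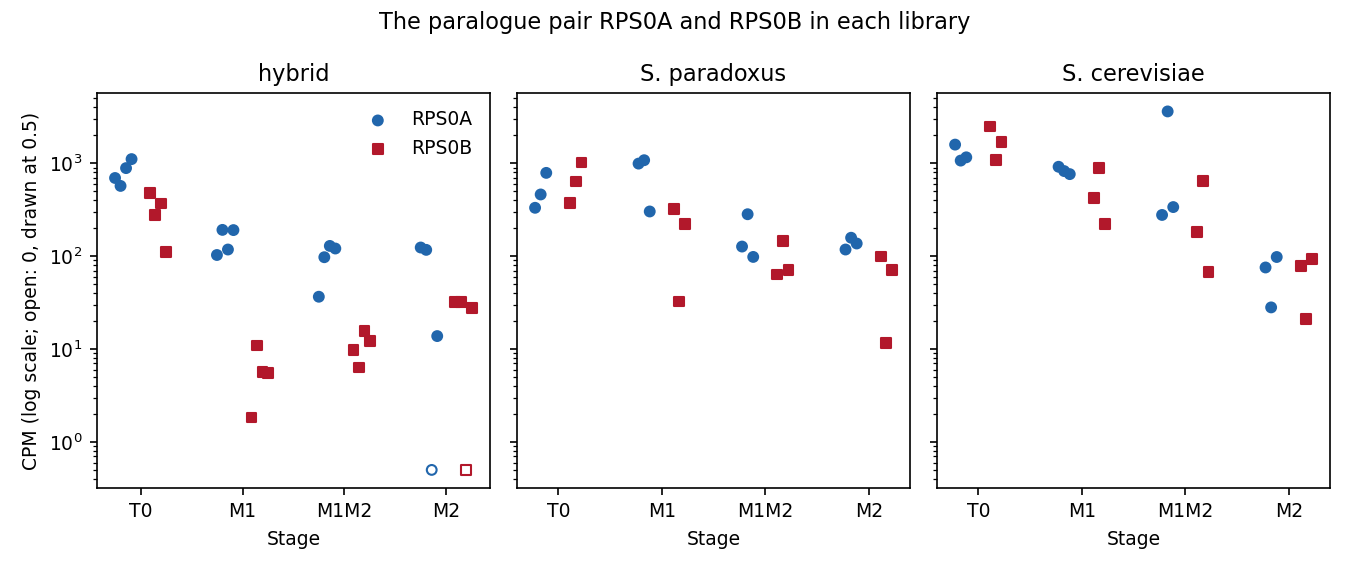
CPM (log axis) of RPS0A (circles) and RPS0B (squares) in each library by stage, in the hybrid, S. paradoxus and S. cerevisiae; open symbols are values of 0, drawn at 0.5. In the hybrid the 4 M1 values of RPS0B lie between 1.83 and 10.9 CPM and those of RPS0A between 103 and 192 CPM.

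RPS26B, whose protein meets the mRNA just upstream of the start codon in the exit channel, passed at M1 in every genotype. RPS26B stood at 2.75, 39.9, 32.7 and 2.22 CPM in the hybrid M1 libraries, against 744, 464, 1100 and 560 CPM at T0. RPS26B stood at 54.0, 48.0 and 5.19 CPM in the S. paradoxus M1 libraries, against 225, 672 and 289 CPM at T0. RPS26B stood at 181, 30.6 and 213 CPM in the S. cerevisiae M1 libraries, against 1360, 1650 and 1330 CPM at T0.

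The groups did not overlap in any of the 3 genotypes. The log2 change of RPS26B was -5.16 in the hybrid (SE 0.98, adjusted p = 0.000104), -3.49 in S. paradoxus (SE 1.05, adjusted p = 0.0464) and -3.31 in S. cerevisiae (SE 1.03, adjusted p = 0.0317). It is the 1 gene of the 29 called in S. paradoxus at M1, and that call was lost without any 1 of the 6 S. paradoxus T0 and M1 libraries (adjusted p 0.0511 to 0.208) and under both other scalings. At M1M2 and M2 RPS26B had the largest change of the 29 in the hybrid (-5.48 and -5.25).

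RPS14B, whose protein sits on the platform and binds its own precursor RNA, had the smallest hybrid change of the 29 genes at M1 and M1M2. RPS14B stood at 208, 167, 108 and 119 CPM in the hybrid M1 libraries, against 273, 199, 131 and 211 CPM at T0. The libraries overlap, and the log2 change was -0.44 (SE 0.88, adjusted p = 0.817), with -0.54 at M1M2 and -2.32 at M2, neither past the threshold. In S. paradoxus the mean of RPS14B was higher at M1 (329 ± 173 CPM) and M1M2 (219 ± 134 CPM) than at T0 (169 ± 47 CPM, SD, n = 3 each). Neither rise passed. In S. paradoxus RPS14B stood at 123, 132 and 172 CPM at M2, against 174, 120 and 213 CPM at T0, a log2 change of -0.25 (SE 1.01, adjusted p = 0.908). In S. cerevisiae the changes of RPS14B were -1.46, -2.93 and -2.68 at the 3 stages and did not pass. A larger change of RPS14B lies within these standard errors.

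RPS1B, a protein of the platform, fell in the hybrid at all 3 stages (log2 -2.49, -3.30 and -4.08). In S. cerevisiae it fell at M2 (log2 -5.46, adjusted p = 4.76e-05). RPS28B, also of the exit side, fell in the hybrid at M1 and passed nowhere else.

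In the head of the subunit, which turns as the ribosome moves along the mRNA, sit, among others, the proteins of RPS10, RPS16, RPS20, RPS29 and RPS31. RPS31 encodes a fusion of ubiquitin to a small-subunit protein and so also supplies the cell with ubiquitin. RPS31 stood at 190, 235, 169 and 185 CPM in the hybrid M1 libraries, against 1860, 1650, 3120 and 3370 CPM at T0. RPS31 stood at 840, 1370 and 196 CPM in the S. paradoxus M1 libraries, against 1720, 4700 and 2470 CPM at T0. RPS31 stood at 1130, 1450 and 1530 CPM in the S. cerevisiae M1 libraries, against 3960, 7580 and 5010 CPM at T0.

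RPS31 was low in all M1 libraries of each genotype relative to T0. The log2 change of RPS31 at M1 was -3.68 in the hybrid (SE 0.61, adjusted p = 1.28e-05), -1.89 in S. paradoxus (SE 0.66, adjusted p = 0.116) and -2.01 in S. cerevisiae (SE 0.66, adjusted p = 0.0429). At M2 RPS31 fell in all 3, with log2 changes of -4.01, -4.13 and -4.81 in that order (adjusted p 1.33e-06, 2.37e-05 and 1.57e-06).

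RPS20, the other single-copy gene of the head, stood at 2.75, 26.9, 41.1 and 4.45 CPM in the hybrid M1 libraries, against 203, 294, 143 and 309 CPM at T0. RPS20 stood at 458, 178 and 110 CPM in the S. paradoxus M1 libraries, against 1140, 2470 and 1370 CPM at T0. RPS20 stood at 806, 489 and 470 CPM in the S. cerevisiae M1 libraries, against 3320, 553 and 2370 CPM at T0. The low T0 library of S. cerevisiae, at 553 CPM, lies among the M1 values. RPS20 fell in the hybrid at M1 (log2 -3.61, adjusted p = 0.00233), and its changes of -2.74 and -1.82 in S. paradoxus and S. cerevisiae did not pass. At M1M2 RPS20 had the largest change of the 29 genes in S. paradoxus (-4.85, adjusted p = 0.000945).

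RPS10A and RPS10B encode proteins at the beak of the head. RPS10A stood at 0, 23.3, 39.9 and 5.56 CPM in the hybrid M1 libraries, against 142, 226, 86.9 and 691 CPM at T0, and fell (log2 -4.01, adjusted p = 0.00124). RPS10B stood at 171, 86.7, 114 and 3.34 CPM, against 579, 383, 303 and 288 CPM at T0, and did not pass (-2.05, SE 0.89, adjusted p = 0.125). RPS10A took 15.7 ± 13.8% of the pair at M1 (n = 3, the libraries with at least 20 counts of the pair), against 37.4 ± 23.4% at T0 (n = 4), and these ranges overlap. Both genes fell in S. paradoxus and in S. cerevisiae at M2, with log2 changes of -3.45 and -3.42 for RPS10A and -4.40 and -3.46 for RPS10B. RPS29A of the head fell in the hybrid at all 3 stages, and RPS16A at M1M2 and M2.

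Of the body, RPS13 is the single-copy gene, and its protein contacts the large subunit. RPS13 stood at 98.9, 125, 149 and 86.8 CPM in the hybrid M1 libraries, against 894, 857, 1160 and 1060 CPM at T0. RPS13 stood at 861, 429 and 169 CPM in the S. paradoxus M1 libraries, against 714, 1550 and 1080 CPM at T0. RPS13 stood at 639, 448 and 918 CPM in the S. cerevisiae M1 libraries, against 2320, 2760 and 2500 CPM at T0.

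Of the parents, S. cerevisiae has separate M1 and T0 values for RPS13 and S. paradoxus does not, since its M1 replicate 1 (861 CPM) lies within the T0 range. The log2 change of RPS13 at M1 was -3.11 in the hybrid (SE 0.63, adjusted p = 0.000259), -1.19 in S. paradoxus (adjusted p = 0.432) and -1.91 in S. cerevisiae (adjusted p = 0.0675). RPS13 had the smallest change of the 11 genes that fell in S. paradoxus at M1M2 (-2.45, adjusted p = 0.0153).

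RPS24A and RPS8B of the body had changes of more than 5 log2 units in the hybrid at M1. RPS24A stood at 0.915, 5.87, 1.21 and 1.11 CPM in the hybrid M1 libraries, against 58.1, 114, 26.2 and 217 CPM at T0 (log2 -5.33, SE 1.1, adjusted p = 0.000402). RPS8B stood at 4.58, 12.4, 1.21 and 1.11 CPM, against 29.2, 181, 280 and 285 CPM at T0 (log2 -5.25, SE 1.14, adjusted p = 0.000663). These are low values, and 1.11 CPM is 1 count in M1 replicate 4. Coding identity with the paralogue is 97.1% for RPS24A and 98.2% for RPS8B. Neither paralogue is in the list, so these pairs were not summed. RPS24A at M1 was at 175, 280 and 41.0 CPM in S. paradoxus, against 290, 186 and 292 CPM at T0, a log2 change of -0.64 that did not pass. RPS8B had the largest change of the 29 in S. cerevisiae at M1M2 (-5.01, adjusted p = 0.0164).

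RPS27A, whose protein holds a zinc ribbon, had the largest change of all 29 in both parents at M2. RPS27A stood at 9.75, 0 and 5.6 CPM in the S. cerevisiae M2 libraries, against 1130, 1040 and 1150 CPM at T0 (log2 -7.72, SE 1.17, adjusted p = 9.1e-07). RPS27A stood at 24.3, 0 and 3.96 CPM in the S. paradoxus M2 libraries, against 173, 364 and 368 CPM at T0 (-4.76, SE 1.02, adjusted p = 0.000457). RPS27A stood at 39.9, 48.1, 0 and 142 CPM in the hybrid M2 libraries, against 695, 547, 1170 and 869 CPM at T0 (-3.76, SE 0.83, adjusted p = 0.000395). The 0 values of the hybrid and of S. paradoxus are in shallow libraries. At M1 RPS27A fell in the hybrid (-3.94) and in S. cerevisiae (-3.17, adjusted p = 0.0216), and in S. paradoxus it did not pass (-1.63).

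The smallest change among the genes that fell in the hybrid was that of RPS22B both at M1M2 (-2.16) and at M2 (-2.15). In the parents at M2 it was that of RPS21A in S. paradoxus (-2.90) and RPS16A in S. cerevisiae (-2.89). RPS7A, also of the body, fell at all 3 stages in the hybrid and at M1M2 and M2 in both parents.

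By place in the subunit, 5 of 6 entry genes, 6 of 7 exit genes, 4 of 7 head genes and 7 of 9 body genes fell in the hybrid at M1, with medians of -3.33, -2.49, -2.77 and -3.11. The ranges of these groups overlap. By gene structure, the 10 genes without an intron all fell in the hybrid at M1 (median -3.64, from -5.25 to -2.42), against 12 of the 19 with an intron (median -2.71, from -5.62 to -0.44). At M2 in the hybrid the counts were 9 of 10 and 17 of 19. Each of the 6 single-copy genes fell in the hybrid at all 3 stages. In the parents at M1, medians for genes without and with an intron were -1.53 and -0.99 in S. paradoxus and -1.92 and -1.87 in S. cerevisiae.

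At T0, before meiosis, RPS31 had the highest mean level per kilobase of coding sequence and RPS9A the lowest in all 3 genotypes. RPS31 had 5450 ± 1900 CPM per kilobase in the hybrid (SD, n = 4), 6450 ± 3380 in S. paradoxus and 12000 ± 4060 in S. cerevisiae (n = 3 each). RPS9A had 192 ± 171, 216 ± 35.1 and 293 ± 34.4 in the same order. Of the 28 steps between neighbours in the order, 0 in the hybrid, 1 in S. paradoxus and 2 in S. cerevisiae were larger than the SD of both genes. RPS2 ranked 26 of 29 in the hybrid, 7 in S. paradoxus and 8 in S. cerevisiae. RPS20 ranked 20, 2 and 4.

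RPS2 passed as lower in the hybrid than in S. cerevisiae at T0, where 2 of the 29 genes did (all genes 0.42% lower and 0.42% higher). The log2 difference was -3.94 for RPS2 (SE 0.75, adjusted p = 0.00104). RPS2 also passed as lower than in S. paradoxus (-2.99, SE 0.72, adjusted p = 0.0108, all genes 1.23% lower and 0.873% higher), while RPS20 (-2.81, adjusted p = 0.0706) did not. The call of RPS2 against S. paradoxus was lost without hybrid T0 replicate 4 and without S. paradoxus T0 replicate 2 (adjusted p 0.0546 and 0.078). DESeq2 called 7 genes against S. cerevisiae (among them RPS0B, RPS1B, RPS2, RPS16A, RPS20 and RPS24A) and 3 against S. paradoxus (RPS2 and RPS20 among them). The shares of all genes above are those of edgeR, and none is given for DESeq2. The part that reads fitting both species have in these differences was not tested.

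Over the 29 genes the median T0 difference was -1.61 for the hybrid minus S. cerevisiae, with 29 of 29 negative, against 0.12 over all genes. The median was -0.20 for the hybrid minus S. paradoxus, with 19 of 29 negative, against 0.02 over all genes. For S. paradoxus minus S. cerevisiae it was -1.26, with 29 of 29 negative, against 0.12 over all genes. In this last comparison 0 genes passed in edgeR (smallest adjusted p 0.141, 5 genes with an unadjusted p under 0.05, all genes 1.68% lower and 3.36% higher), and DESeq2 called RPS16A and RPS27A. These signs were the same under both other scalings, with 18 or 19 of 29 negative for the hybrid minus S. paradoxus.

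**Figure D5:**
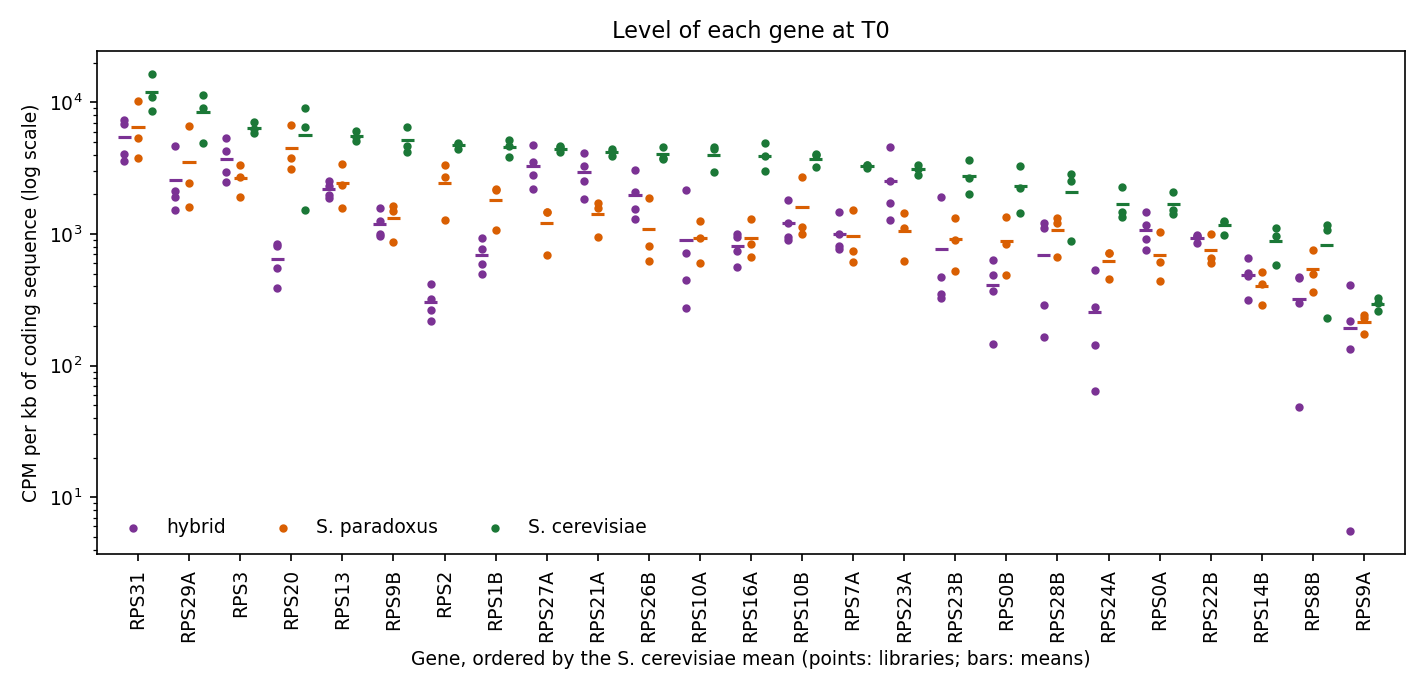
CPM per kilobase of coding sequence (log axis) of 25 of the 29 genes at T0 in each library of the hybrid, S. paradoxus and S. cerevisiae; bars are means. The hybrid means of RPS20 (648) and RPS2 (305) lie far below those of both parents.

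In the hybrid, the S. paradoxus allele of each gene was set against its S. cerevisiae allele in the same library. As a check of the allele columns, 14 genes had 0 counts in S. cerevisiae and at least 500 in S. paradoxus. In the hybrid these held 71610 S. paradoxus and 8966 S. cerevisiae allele counts. The 11 genes of the converse kind held 4310 S. paradoxus and 42961 S. cerevisiae allele counts. Whether counts went to the wrong allele, and what that does to the allele differences, was not tested. The S. paradoxus allele held 51.5 ± 10.5% of the counts of the 29 genes at T0, 50.5 ± 5.56% at M1, 51.1 ± 6.04% at M1M2 and 51.6 ± 16.1% at M2 (SD, n = 4 each). Hybrid T0 replicate 1 stands apart, with 65.5% S. paradoxus counts over all genes against 49.5 to 51.8% in the other T0 libraries, and 66.7% in the 29 genes against 43.3 to 49.4%. At M2 the extremes were the 2 libraries with the fewest counts in these genes, replicate 3 with 72.1% of 86 counts and replicate 4 with 33.3%.

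No allele difference passed in edgeR at T0, M1, M1M2 or M2, where 1, 4, 1 and 4 genes had an unadjusted p under 0.05 and DESeq2 called 1, 3, 1 and 2. The median over the 29 genes lay between -0.08 and 0.03 at these stages. Of all 2997 genes tested, 0.0667%, 0.4%, 0.4% and 0.767% passed as lower in the S. paradoxus allele, and 0.0667%, 0.467%, 0.434% and 0.767% as higher. No difference in the change from T0 between the alleles passed either (1, 1 and 2 genes with an unadjusted p under 0.05 at M1, M1M2 and M2, DESeq2 0, 1 and 0, all genes 0.0% in both directions).

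The genes that DESeq2 called had the same allele higher in all 4 libraries of the stage. At M1 the S. paradoxus allele of RPS29A had 41 counts over the 4 libraries, against 390 for the S. cerevisiae allele, and that of RPS27A 134 against 448. RPS13 went the other way, with 901 against 272. At M2 RPS13 had 152 S. paradoxus counts against 456, lower in 4 of 4 libraries, and RPS23A 103 against 558. At T0 the S. paradoxus allele of RPS8B had 789 counts against 73, and at M1M2 that of RPS10B had 46 against 277. The 2 alleles of RPS2, which is low in the hybrid, had 955 and 758 counts at T0, a log2 difference of 0.13 (SE 1.37).

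The 42 large-subunit genes followed a like course. In the hybrid 34 fell at M1, 36 at M1M2 and 36 at M2, with medians of -3.21, -3.31 and -3.96. In S. paradoxus 2, 14 and 20 fell (medians -0.98, -2.51 and -2.69) and in S. cerevisiae 2, 28 and 36 (-1.93, -3.03 and -3.75). For the hybrid minus each parent in change at M1 their medians were -2.25 from S. paradoxus, with 1 gene past the threshold, and -1.12 from S. cerevisiae, with 0.

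Of 8 factors of small-subunit assembly (TSR1, LTV1, RIO2, DIM1, HRR25, TSR2, YAR1 and RRP12), 5 fell in the hybrid at M1: TSR1 (log2 -4.95), a GTPase-like factor of the late subunit, LTV1 (-3.52), which holds RPS3 and RPS20 in place until release, RRP12 (-3.68), an export factor, YAR1 (-3.78), the chaperone of RPS3, and the kinase HRR25 (-1.55). In the hybrid TSR1, LTV1 and RRP12 also fell at M1M2 and M2, and HRR25 rose at M2 (2.11). In S. paradoxus 0 of the 8 fell at any stage and HRR25 rose at M2 (2.39). In S. cerevisiae RRP12 and HRR25 fell at M1, TSR1 and RRP12 at M1M2 and RRP12 at M2. RRP12 was the 1 factor of the 8 whose change differed between genotypes in edgeR, at M2 between S. paradoxus and S. cerevisiae.

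Of 8 regulators (RAP1, SFP1, CRF1, HMO1, TOD6, ABF1, SCH9 and TOR1), SFP1, an activator of ribosomal protein genes, fell in the hybrid at M1 (log2 -3.04) and M2 (-2.46), and TOD6, a repressor of ribosome biogenesis genes, at M1 (-4.29) and M2 (-3.28). HMO1, a promoter-bound protein of these genes, fell in the hybrid at M1M2 (-4.03) and M2 (-3.63), in S. paradoxus at all 3 stages (-3.60, -3.39 and -4.90) and in S. cerevisiae at M2 (-3.74). SCH9, a kinase under TORC1, fell in the hybrid at M1M2 and M2 and in S. paradoxus at M2. TOD6 also fell in S. cerevisiae at M1 (-6.92). RAP1 itself passed nowhere, with log2 changes of -1.20 to 0.27, nor did ABF1, CRF1 or TOR1. None of the 8 differed between genotypes in its change in edgeR.

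Of 5 genes of haploid cells, which diploids keep off (STE2, STE4, STE18, MFA1 and FUS3), 1 to 3 rose from T0 in each genotype and stage and 0 fell, where 1.42 to 12% of all genes rose. The calls were of FUS3, STE4 and STE18, and STE2 and MFA1 passed in no genotype or stage, with log2 changes of -4.56 to 2.27 for STE2 and 0.38 to 4.74 for MFA1. Their summed level was 42.8 to 187 CPM at T0, 219 to 446 at M1, 573 to 822 at M1M2 and 43.3 to 2590 at M2 in the hybrid. It was 22.8 to 114, 227 to 700, 314 to 591 and 288 to 1040 CPM in S. paradoxus, and 43.1 to 128, 89.8 to 723, 183 to 2410 and 808 to 2450 CPM in S. cerevisiae. In S. cerevisiae at M1M2, STE4 stood at 2410 CPM in shallow replicate 2, beside 61.9 and 26.9 CPM in the others. In S. cerevisiae at M1, FUS3 stood at 682 CPM in shallow replicate 2, beside 4.35 and 13.8 CPM. The calls of STE4 and FUS3 there include these libraries. None of the 5 was at 0 throughout a group, and their part in the results was not tested.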

How the data were processed

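RNA-seq counts of 40 libraries were used. The authors deposited raw counts per feature, whole numbers that were not normalised, for each library and, in the hybrid, for each allele, and a deposited variance-stabilised table was not used. Bowtie 0.12.7 and DESeq 1.8.3 are named in the submitters' processing notes. The counting rule, strand setting and genome build are not given in the sources used here. Of 3463 features 246 are not genes, and these held 0.392 to 4.954% of the counts of a library and were left out. Gene counts ran from 23453 to 7732384 per library.

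Counts were fitted with the quasi-likelihood test of edgeR 4.0.16 (R 4.3.3, limma 3.58.1) with TMM scaling and filterByExpr, in 1 model of the 12 groups (3094 genes). Allele counts were fitted with library as a block (2997 genes). P-values were adjusted by Benjamini-Hochberg over all genes tested, with a threshold of 0.05. Alternatives were size factors, TMM scaling without ribosomal protein genes, no filter, DESeq2 1.42.0, leaving out the 4 shallowest libraries or each library in turn, a replicate block, a shared library size for the alleles, and summed paralogue pairs. The fits were tested on simulated data. Replicate numbers were not used as pairs.

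Names, coding lengths, introns and sequences came from RefSeq (build R64) of S. cerevisiae, and no coordinates of the files were used. The members, gene lists and tests were chosen with earlier results of these data known. Full values went to the single-copy genes named, complete pairs and the largest and smallest change past the threshold in each comparison, and other members are given by count or were named after their values were seen. RPS18A was not analysed here, and the values of some other members enter the counts and medians and are not reported here singly.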

Additional observations from a re-analysis of the deposited data

Results flagged for a closer look

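In 112 groups of 4 hybrid libraries the highest or lowest value was checked against the others with Dixon's criterion, and 8 stood apart, where chance gives about 1 in 20. The S. paradoxus allele held 65.5% of all gene counts in hybrid T0 replicate 1, against 49.5 to 51.8% in the other T0 libraries, and 50.6% in hybrid M2 replicate 4, against 51.8% in each of the others. RPS23B had 841 CPM in hybrid T0 replicate 4, against 144 to 205 CPM in the others. RPS24A had 5.87 CPM in hybrid M1 replicate 2, against 0.915 to 1.21 CPM. RPS27A had 102 CPM in hybrid M1M2 replicate 2, against 50 to 54.6 CPM. RPS9A had 50.2 CPM in hybrid M1M2 replicate 4, against 2.99 to 8.01 CPM. RPS0B and RPS22B had 0 CPM in hybrid M2 replicate 3, which is one of the shallow libraries, against 27.6 to 32.4 CPM and 104 to 107 CPM.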

How the results depend on the processing

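The counts of genes past the threshold depended on the settings most where few passed. With size factors and with scaling without ribosomal protein genes, the 1 gene of S. paradoxus at M1 became 0. With DESeq2, S. cerevisiae had 9 genes at M1 and 26 at M1M2, the hybrid minus S. cerevisiae had 1 in the change at each of M1, M1M2 and M2 and 7 at T0, the hybrid minus S. paradoxus had 3 in the change at M1 and 3 at T0, and S. paradoxus minus S. cerevisiae had 2 at T0. For the alleles DESeq2 gave 1, 3, 1 and 2 at T0, M1, M1M2 and M2 and 1 in the change to M1M2. Without the 4 shallowest libraries, S. cerevisiae had 1 gene at M1, the hybrid minus S. cerevisiae 5 at T0, the hybrid minus S. paradoxus 4 in the change at M1 and 3 at T0, and S. paradoxus minus S. cerevisiae 1 at T0. The hybrid minus S. paradoxus at T0 gave 2 without a filter and 2 with scaling without ribosomal protein genes. The cause of these differences was not tested, and the shares of all genes called under these settings are not given here.

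Leaving out 1 library of the groups compared gave 17 to 21, 22 to 24 and 23 to 25 genes in the hybrid at M1, M1M2 and M2, 0, 5 to 10 and 14 to 20 in S. paradoxus, and 0 to 1, 4 to 19 and 21 to 24 in S. cerevisiae. It gave 1 to 3 for the hybrid minus S. cerevisiae and 0 to 1 for the hybrid minus S. paradoxus at T0, 0 to 1 for the hybrid minus S. cerevisiae in the change at M1M2, and 0 in the other tests. Libraries outside a comparison also moved counts, since the groups share 1 model. Without hybrid M2 replicate 3, S. cerevisiae at M1 had 5 genes and the hybrid minus S. cerevisiae at T0 had 4. With each of the 40 libraries left out in turn, the 1 gene of S. paradoxus at M1 became 0 in 24 fits. The hybrid minus S. paradoxus at T0 gave 2 genes in 14 fits, 3 in 2 and 0 in 2. The hybrid minus S. cerevisiae at T0 gave 4 genes in 3 fits and 1 in 1.

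No pairing of libraries by replicate number was seen. Deviations of same-numbered libraries correlated at a mean of 0.0207 (60 pairs, from -0.144 to 0.208), and those of other numbers at -0.00588 (144 pairs). Because single libraries are noisy, this does not settle whether same-numbered libraries share a culture. With the replicate block S. cerevisiae at M1 had 1 gene in place of 3, and the other counts moved by less than 1.5 times. Other scalings moved the median of all genes by up to 0.31 on the log2 scale, in the hybrid minus S. cerevisiae change at M2. No named gene reversed its direction under the settings run. Depth limits the shallow libraries most, where 15 of the 29 genes were at 0 in hybrid M2 replicate 3.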
